A study of Homo sapiens with 48 samples.

Results

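DUSP4, DUSP5, DUSP6, SPRY2, SPRY4, SPRED1, SPRED2, SPRED3, PHLDA1 and FOSL1 are 10 genes whose transcription follows the activity of the ERK kinases. The members were chosen with earlier results of these data known, so counts set beside the shares of all genes describe them and do not test the set. They were found by symbol in the authors' table of read counts. All 10 were present among its 27978 symbols, and all 10 were among the 15789 genes that passed the filter on low counts. The rarest member was SPRED3, with 6 counts in its lowest library.

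A growth factor receptor such as EGFR signals through RAS, RAF and MEK to ERK, and active ERK induces genes that act back on the pathway. DUSP4 and DUSP5 are nuclear phosphatases and DUSP6 is a cytoplasmic phosphatase that remove the activating phosphates from ERK. The Sprouty proteins (SPRY2, SPRY4) and the related SPRED proteins (SPRED1, SPRED2, SPRED3) act higher in the pathway, at the level of RAS and RAF, and SPRED1 brings the RAS inhibitor neurofibromin to the membrane. FOSL1 encodes FRA-1, a subunit of the AP-1 transcription factor that ERK both induces and stabilises. PHLDA1 encodes a protein with a pleckstrin homology-like domain and is a common transcript in signatures of MEK and ERK output. In lung cancer cells with mutant EGFR, levels of such transcripts are widely used to follow the response to EGFR inhibitors.

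The RNA came from H1975, a human lung cancer line with mutant EGFR that is described as resistant to gefitinib, an inhibitor of the EGFR kinase. The study asked how 2 preparations act on such cells together with gefitinib: CKI (compound kushen injection, a plant extract given by injection) and YFSJ, which the labels name by its letters only. The 14 treated groups were kept for 24 h with 1 agent or 2. Single agents were gefitinib (50 µM in 1 group, 75 µM in another), CKI (1 mg/mL or 2 mg/mL) and YFSJ (2.5 mg/mL or 5 mg/mL). The combined groups were the 4 pairings of a CKI dose with a gefitinib dose and the 4 pairings of a YFSJ dose with a gefitinib dose. The 2 other groups were untreated cells at 24 h and at 0 h, and no group was treated with vehicle alone as far as the labels say. Each of the 16 groups had 3 libraries, called biological replicates by the submitters. What separates them is not stated, so the p-values measure the spread between such libraries. That spread was estimated for each gene over all 16 groups. A p-value therefore does not reflect the spread of the compared groups alone. In RNA from a whole culture, fewer cells that express a gene and less of its RNA per cell cannot be told apart.

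The 3 promoter windows are shown because SPRED3, DUSP6 and SPRY4 had the largest falls under gefitinib 50 µM among the 7 members with a window in the RefSeq promoter table (GRCh38.p14). Each runs 5′ to 3′ over the 250 bases before a transcript start: chr19:38389541-38389790 on the plus strand for SPRED3, chr12:89352502-89352751 on the minus strand for DUSP6 and chr5:142324248-142324497 on the minus strand for SPRY4. Capitals mark a match to a motif.
SPRED3: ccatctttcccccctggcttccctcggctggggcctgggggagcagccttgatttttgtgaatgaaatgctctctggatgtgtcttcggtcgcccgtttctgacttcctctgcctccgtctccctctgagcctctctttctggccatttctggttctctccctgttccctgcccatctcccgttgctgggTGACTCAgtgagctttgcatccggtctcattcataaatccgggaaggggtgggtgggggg
DUSP6: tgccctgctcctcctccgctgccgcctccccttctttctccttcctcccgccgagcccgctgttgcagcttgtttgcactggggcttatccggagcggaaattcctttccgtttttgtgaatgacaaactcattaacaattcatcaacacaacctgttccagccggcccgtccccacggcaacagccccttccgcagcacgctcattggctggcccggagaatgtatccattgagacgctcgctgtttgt
SPRY4: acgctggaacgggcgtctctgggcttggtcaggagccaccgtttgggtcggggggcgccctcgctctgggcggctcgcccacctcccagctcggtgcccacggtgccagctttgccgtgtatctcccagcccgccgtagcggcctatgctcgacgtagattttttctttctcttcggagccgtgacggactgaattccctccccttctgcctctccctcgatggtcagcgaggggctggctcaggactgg
The 11 windows of these 7 members were searched on both strands for the AP-1 motif TGANTCA and the cyclic AMP response element TGACGTCA. The search also covered the ETS motif CCGGAAG and the CArG box of the serum response element. Shorter or variant forms of these motifs, such as the ETS core alone, were not searched for. SPRED3 has another window, which held no match; the one shown is the one with a match. It held the only match among the 11 windows, TGACTCA, whose first base lies 60 bases before the start. Of 35116 windows of the same length in the table, 6.57% held TGANTCA, 1.65% TGACGTCA, 8.52% CCGGAAG and 1.16% a CArG box. A match describes letters in the window and not a bound site.

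Libraries held 16428398 to 26264162 gene counts, at which 3 counts correspond to 0.114 to 0.183 CPM (counts relative to the library total, scaled by TMM factors); these floors cover counting error only. The catalogue number in the growth protocol is that of a breast cancer line. Of 8 lung epithelial markers 6 reached a median of 1 CPM: NKX2-1 (44.7 CPM), SFTA3, FOXA2, KRT7, EPCAM and CDH1. SFTPB (0.0431 CPM) and SFTPC (0 CPM) did not. Of 6 luminal breast markers 1 did, KRT19 at 1106 CPM, while ESR1 had a median of 0.125 CPM. A few libraries stood apart from the others of their group. The mitochondrial ribosomal transcript RNR2 took 1.22% and 1.69% of counts in untreated 0 h libraries 1 and 2, against 0.457% in library 3. It took 2.18% in library 2 of YFSJ 2.5 mg/mL with gefitinib 75 µM. Library 3 of YFSJ 5 mg/mL with gefitinib 50 µM was the lowest of its group for all 10 genes. Finally, 10 libraries held 2581 to 3557 counts of the liver transcript ALB, against at most 8 in the other libraries: all 3 of YFSJ 2.5 mg/mL, all 3 of CKI 2 mg/mL with gefitinib 75 µM, libraries 1 and 3 of CKI 2 mg/mL with gefitinib 50 µM and libraries 2 and 3 of CKI 1 mg/mL with gefitinib 75 µM. Where a term for the ALB set ended a call, this is said beside the result. The last 2 groups named held libraries of both kinds, so the term was estimated from them and carried over to the others. A call that ended with the term can reflect lower precision as well as a shift, and these were not told apart.

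Per kilobase of merged exons, FOSL1 was the most abundant member in untreated cells at 24 h, with 174 ± 25.7 CPM per kilobase (SD, n = 3). PHLDA1 followed with 22.7 ± 1.03, DUSP5 with 19.4 ± 1.01 and SPRED2 with 10.3 ± 0.796 CPM per kilobase. The least abundant were SPRY4 with 1.57 ± 0.0823 and SPRED3 with 0.395 ± 0.0762 CPM per kilobase. The genes lie on chromosomes 8 (DUSP4), 10 (DUSP5), 12 (DUSP6 and PHLDA1), 13 (SPRY2), 5 (SPRY4), 15 (SPRED1), 2 (SPRED2), 19 (SPRED3) and 11 (FOSL1). In GENCODE 29 exons of DUSP6 and PHLDA1 overlap genes on the opposite strand, and the libraries are unstranded, so reads of such pairs cannot be told apart and the levels of both genes are uncertain to that extent. The antisense gene SPRY4-AS1 had at most 37 counts in a library.

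Gefitinib lowered most of these transcripts in H1975 cells. Against untreated cells at 24 h, 9 of 10 members fell with 50 µM and 8 of 10 with 75 µM, and none rose. Of all genes tested, 26.8% and 27.1% fell at the 2 doses and 27.6% and 27.6% rose. The median log2 fold change of the members was -1.01 with 50 µM and -0.80 with 75 µM, against 0.03 and 0.02 for all genes tested. The RNR2 share was 0.655 to 0.868% with 50 µM and 0.674 to 0.886% with 75 µM, against 0.464 to 0.582% untreated, and its part in these results was not tested. The AP-1 subunit FOSL1 fell most, by 2.58 and 2.21 on the log2 scale.

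FOSL1 had 54.5, 60.5 and 45.6 CPM in the libraries with gefitinib 50 µM and 68.2, 64.7 and 74.3 CPM with 75 µM, against 266, 347 and 348 CPM in untreated cells. No treated library reached the lowest untreated one. The fall was 5.98-fold with 50 µM (log2 fold change -2.58 ± 0.16 (SE), adjusted p = 2.97e-17) and 4.63-fold with 75 µM (log2 fold change -2.21 ± 0.16 (SE), adjusted p = 2.25e-15). PHLDA1 had 83.5, 73.9 and 83.8 CPM with 50 µM and 87.9, 87.5 and 92.4 CPM with 75 µM, against 174, 191 and 184 CPM untreated. Its 6 treated libraries also lay below all untreated ones, and it fell 2.27-fold (log2 fold change -1.18 ± 0.09 (SE), adjusted p = 1.00e-14) and 2.05-fold (log2 fold change -1.03 ± 0.09 (SE), adjusted p = 6.32e-13).

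Among the phosphatases, cytoplasmic DUSP6 fell more than nuclear DUSP5, and DUSP4 moved least. DUSP6 had 6.18, 4.95 and 6.35 CPM with 50 µM and 7.07, 8.02 and 6.51 CPM with 75 µM, against 17.3, 17.9 and 16.8 CPM untreated (log2 fold change -1.57 ± 0.13 (SE), adjusted p = 8.44e-14 with 50 µM; log2 fold change -1.27 ± 0.13 (SE), adjusted p = 3.05e-11 with 75 µM). DUSP5 had 28.5, 26.0 and 28.9 CPM with 50 µM and 29.7, 30.8 and 30.5 CPM with 75 µM, against 52.4, 48.6 and 47.6 CPM untreated (log2 fold change -0.83 ± 0.12 (SE), adjusted p = 5.89e-08 with 50 µM; log2 fold change -0.71 ± 0.12 (SE), adjusted p = 1.59e-06 with 75 µM). For both genes the treated libraries lay below the untreated ones. DUSP4 had 51.1, 52.5 and 46.3 CPM with 50 µM and 57.7, 51.1 and 64.4 CPM with 75 µM, against 61.2, 55.8 and 68.5 CPM untreated. It fell with 50 µM (log2 fold change -0.31 ± 0.12 (SE), adjusted p = 0.0245), while with 75 µM its libraries overlapped the untreated ones and the log2 fold change was -0.10 ± 0.12 (adjusted p = 0.495, 95% interval -0.34 to 0.14). Leaving out library 3 of the untreated group or library 3 of the 50 µM group ended the DUSP4 call (-0.23 and -0.26), as did scaling by library size (-0.20). The differences between the 3 phosphatases were not tested.

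The Sprouty and SPRED genes differed widely in the size of their fall. SPRY4 had 2.72, 3.41 and 2.28 CPM with 50 µM and 3.75, 4.53 and 4.38 CPM with 75 µM, against 8.14, 7.34 and 7.92 CPM untreated, and fell by 1.48 and 0.89 on the log2 scale (adjusted p = 3.69e-09 and 3.43e-05). SPRY2 had 18.5, 17.6 and 19.0 CPM with 50 µM and 19.8, 17.1 and 18.1 CPM with 75 µM, against 21.3, 20.4 and 21.9 CPM untreated. Its treated libraries were all below the untreated ones, but its log2 fold changes of -0.21 ± 0.11 and -0.21 ± 0.11 did not pass the test (adjusted p = 0.102 and 0.0969). SPRED3, the rarest member, had 0.371, 0.904 and 0.533 CPM with 50 µM and 0.907, 1.05 and 0.692 CPM with 75 µM, against 2.55, 1.93 and 1.79 CPM untreated (log2 fold change -1.78 ± 0.29 (SE), adjusted p = 1.05e-06 with 50 µM; log2 fold change -1.25 ± 0.27 (SE), adjusted p = 0.000133 with 75 µM). SPRED1, the partner of neurofibromin, fell by 0.57 and 0.68 on the log2 scale, and SPRED2 by 0.60 and 0.44. With 50 µM the libraries of all 10 members did not overlap the untreated ones, and with 75 µM those of 9, compared with 28.6% and 30.4% of all genes lying wholly below.

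No member passed the test between the 2 gefitinib doses. With 75 µM against 50 µM, 0 of 10 members were called by edgeR or by DESeq2, where 0.0317% of all genes were higher and 0.00% lower by edgeR. SPRY4 had the smallest p of the members, with 3.75, 4.53 and 4.38 CPM at 75 µM against 2.72, 3.41 and 2.28 CPM at 50 µM (log2 fold change 0.60 ± 0.20, adjusted p = 1, 95% interval 0.19 to 1.00). The 95% interval for FOSL1 ran from 0.05 to 0.69 and that for DUSP6 from 0.01 to 0.60 on the log2 scale. At an unadjusted level of 0.05, 3 members differed between the doses. For 5 of 10 members (DUSP5, DUSP6, SPRY4, PHLDA1 and FOSL1) the libraries at 75 µM lay wholly above those at 50 µM. Of all genes tested 4.24% did so. The members' median log2 fold change was 0.19, against -0.0033 for all genes tested, so the missing calls do not show that the doses were alike.

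**Figure D1:**
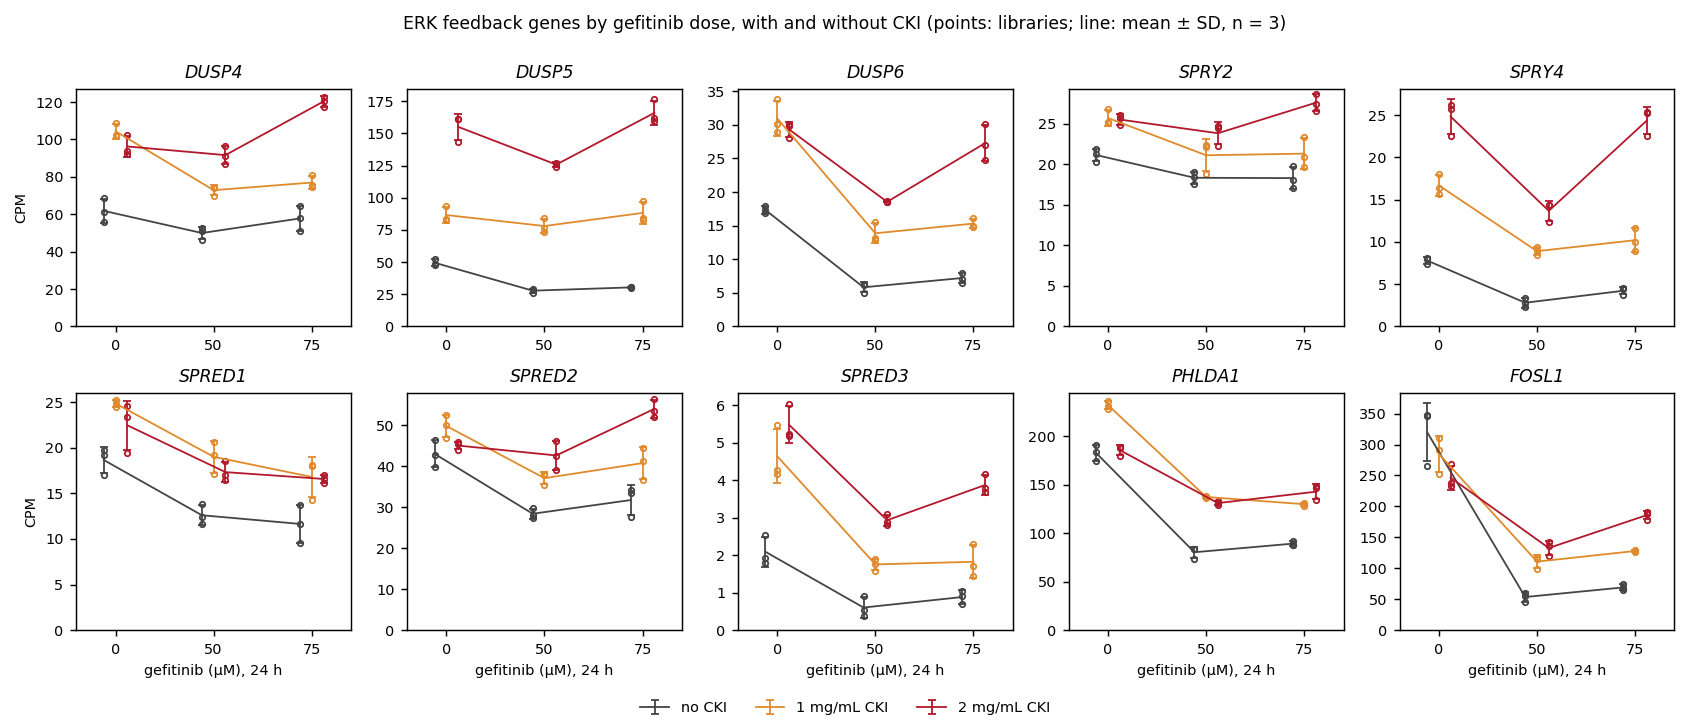
CPM of each of the 10 genes in H1975 cells after 24 h, by gefitinib dose (0, 50 and 75 µM on the horizontal axis) and by CKI dose (colours, 0, 1 and 2 mg/mL). Points are libraries, and lines join group means with SD bars (n = 3); without CKI, FOSL1 averaged 69.1 CPM at 75 µM and 320.2 CPM without gefitinib, while with CKI at 2 mg/mL it averaged 186 and 247 CPM.

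CKI alone raised most of the feedback genes over untreated cells at 24 h, but not FOSL1. Against untreated cells at 24 h, 9 members rose and none fell with 1 mg/mL (13.2% of all genes rose and 14.7% fell) and 6 with 2 mg/mL (24.1% of all genes). FOSL1 was called in neither direction with 1 mg/mL and fell with 2 mg/mL, where 27.1% of all genes fell. The members' median log2 fold change was 0.58 with 1 mg/mL and 0.45 with 2 mg/mL. Several of these genes fell between 0 h and 24 h without agents. Libraries at 0 h overlapped those with CKI 2 mg/mL for SPRY4 (means 24.4 and 24.8 CPM) and SPRED3 (5.44 and 5.48 CPM). They overlapped those with 1 mg/mL for DUSP4 (99.5 and 104 CPM) and DUSP5 (84.7 and 86.6 CPM). DUSP5 with 2 mg/mL (155 CPM) and DUSP6 (31.0 and 29.3 CPM, 18.7 CPM at 0 h) averaged above 0 h. No treated group was tested against 0 h. The RNR2 share was 0.483 to 0.625% with 1 mg/mL and 0.919 to 1.16% with 2 mg/mL, against 0.464 to 0.582% untreated, and its part was not tested.

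DUSP5 had 93.7, 83.4 and 82.6 CPM with CKI 1 mg/mL and 161, 143 and 161 CPM with 2 mg/mL, against 52.4, 48.6 and 47.6 CPM in untreated cells. The 3 groups did not overlap, and DUSP5 rose 1.75-fold and 3.13-fold (log2 fold change 0.80 ± 0.11 (SE), adjusted p = 3.00e-07 with 1 mg/mL; log2 fold change 1.65 ± 0.11 (SE), adjusted p = 5.94e-16 with 2 mg/mL). SPRY4 had 18.1, 15.6 and 16.3 CPM with 1 mg/mL and 26.2, 22.5 and 25.7 CPM with 2 mg/mL, against 8.14, 7.34 and 7.92 CPM untreated, rises of 2.13-fold and 3.17-fold (adjusted p = 2.83e-07 and 1.77e-12). These were also the members that rose further at the higher dose: with 2 mg/mL against 1 mg/mL the log2 fold change was 0.84 ± 0.11 for DUSP5 (adjusted p = 1.24e-07) and 0.57 ± 0.14 for SPRY4 (adjusted p = 0.00155), where 15.1% of all genes rose.

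DUSP4, DUSP6 and SPRED3 rose at both CKI doses. DUSP6 had 33.9, 28.9 and 30.1 CPM with 1 mg/mL and 30.1, 29.8 and 28.1 CPM with 2 mg/mL, against 17.3, 17.9 and 16.8 CPM untreated (log2 fold changes 0.84 ± 0.12 and 0.76 ± 0.12). DUSP4 had 102, 109 and 102 CPM with 1 mg/mL and 92.5, 102 and 93.9 CPM with 2 mg/mL, against 61.2, 55.8 and 68.5 CPM untreated (log2 fold changes 0.76 ± 0.12 and 0.64 ± 0.12). SPRED3 averaged 4.64 ± 0.722 CPM with 1 mg/mL and 5.48 ± 0.488 CPM with 2 mg/mL, against 2.09 ± 0.403 CPM untreated (SD, n = 3 each; log2 fold changes 1.14 ± 0.21 and 1.38 ± 0.21). For each of these genes every CKI library lay above every untreated one. SPRY2 rose by 0.28 and 0.27 on the log2 scale (adjusted p = 0.0391 and 0.0288).

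PHLDA1, SPRED1 and SPRED2 rose with 1 mg/mL and were not called with 2 mg/mL. PHLDA1 had 237, 232 and 228 CPM with 1 mg/mL and 180.2, 188 and 189 CPM with 2 mg/mL, against 174, 191 and 184 CPM untreated; between the doses it fell by 0.32 on the log2 scale (adjusted p = 0.0057, where 17.6% of all genes fell), a call that scaling by library size ended (-0.20). SPRED1 had log2 fold changes of 0.41 ± 0.12 (adjusted p = 0.00961) and 0.26 ± 0.12 (adjusted p = 0.0725), and the difference between the doses did not pass the test (-0.15 ± 0.12, adjusted p = 0.368). SPRED2 had log2 fold changes of 0.21 ± 0.08 (adjusted p = 0.0458) and 0.07 ± 0.08 (adjusted p = 0.518). With 2 mg/mL both passed under scaling by library size, SPRED1 at 0.47 (adjusted p = 0.00261) and SPRED2 at 0.27 (adjusted p = 0.00984), and SPRED1 also without CKI library 2, at 0.36 (adjusted p = 0.0252). FOSL1 had 292, 310.2 and 252 CPM with 1 mg/mL and 238, 269 and 233 CPM with 2 mg/mL, against 266, 347 and 348 CPM untreated. Its libraries with 2 mg/mL overlapped the untreated ones, and it was called lower (log2 fold change -0.38 ± 0.15 (SE), adjusted p = 0.0352). That call ended without untreated library 2 or 3 or CKI library 1 or 3 (-0.35 to -0.31), and with scaling by library size (-0.17). The small rises of SPRY2 and SPRED2 were also bound to single libraries. The SPRY2 call with 1 mg/mL ended when any 1 of the 6 libraries was left out (0.25 to 0.31), and with 2 mg/mL without untreated library 1 or 2 or CKI library 1 or 3 (0.24 to 0.27). The SPRED2 call with 1 mg/mL ended without untreated library 1 or 2 or CKI library 2 or 3 (0.16 to 0.21), and the SPRED1 call without untreated library 2 (0.35).

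Few members passed the test with YFSJ alone. With 5 mg/mL, DUSP4, SPRY4 and SPRED3 rose (4.28% of all genes did), and with 2.5 mg/mL SPRED3 alone passed the test (2.01% of all genes rose). No member fell, against 0.918% of all genes with 2.5 mg/mL and 2.20% with 5 mg/mL. Untreated cells at 0 h averaged 99.5 CPM of DUSP4, 24.4 of SPRY4 and 5.44 of SPRED3, above the means with YFSJ 5 mg/mL (91.6, 12.1 and 4.83 CPM).

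SPRED3 had 4.18, 4.19 and 4.44 CPM with YFSJ 2.5 mg/mL and 4.94, 4.92 and 4.64 CPM with 5 mg/mL, against 2.55, 1.93 and 1.79 CPM in untreated cells. Every YFSJ library lay above the untreated ones, and SPRED3 rose 2.03-fold (log2 fold change 1.02 ± 0.21 (SE), adjusted p = 0.00313) and 2.29-fold (log2 fold change 1.20 ± 0.21 (SE), adjusted p = 0.000167). All 3 libraries with YFSJ 2.5 mg/mL are in the set with ALB counts; with a term for that set the log2 fold change was 1.23 and no longer passed (adjusted p = 0.0607). SPRY4 had 11.3, 11.6 and 10.3 CPM with 2.5 mg/mL and 12.5, 10.8 and 13.2 CPM with 5 mg/mL, against 8.14, 7.34 and 7.92 CPM untreated (log2 fold changes 0.50 ± 0.16, adjusted p = 0.0691, and 0.63 ± 0.16, adjusted p = 0.00855). DUSP4 had 79.7, 68.7 and 78.8 CPM with 2.5 mg/mL and 101, 81.0 and 92.9 CPM with 5 mg/mL, against 61.2, 55.8 and 68.5 CPM untreated (log2 fold changes 0.29 ± 0.12, adjusted p = 0.174, and 0.57 ± 0.12, adjusted p = 0.00152). Without untreated library 2 the SPRY4 call with 5 mg/mL ended (0.60, adjusted p = 0.0575).

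For the other 7 members the log2 fold changes with YFSJ 5 mg/mL ran from -0.10 to 0.22. FOSL1 had 425, 361 and 334 CPM with 5 mg/mL, against 266, 347 and 348 CPM untreated, which overlapped (log2 fold change 0.22 ± 0.15, 95% interval -0.09 to 0.53). DUSP5, which rose most with CKI 2 mg/mL among the phosphatases, had 49.5, 48.7 and 45.4 CPM with YFSJ 5 mg/mL (log2 fold change -0.05 ± 0.11, 95% interval -0.28 to 0.18). Between 5 and 2.5 mg/mL YFSJ 0 of 10 members were called by edgeR or by DESeq2 (0.0190% of all genes were higher and 0.355% lower by edgeR), and 1 had an unadjusted p under 0.05. The CKI and YFSJ doses differ in amount and were not set against each other.

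**Figure D2:**
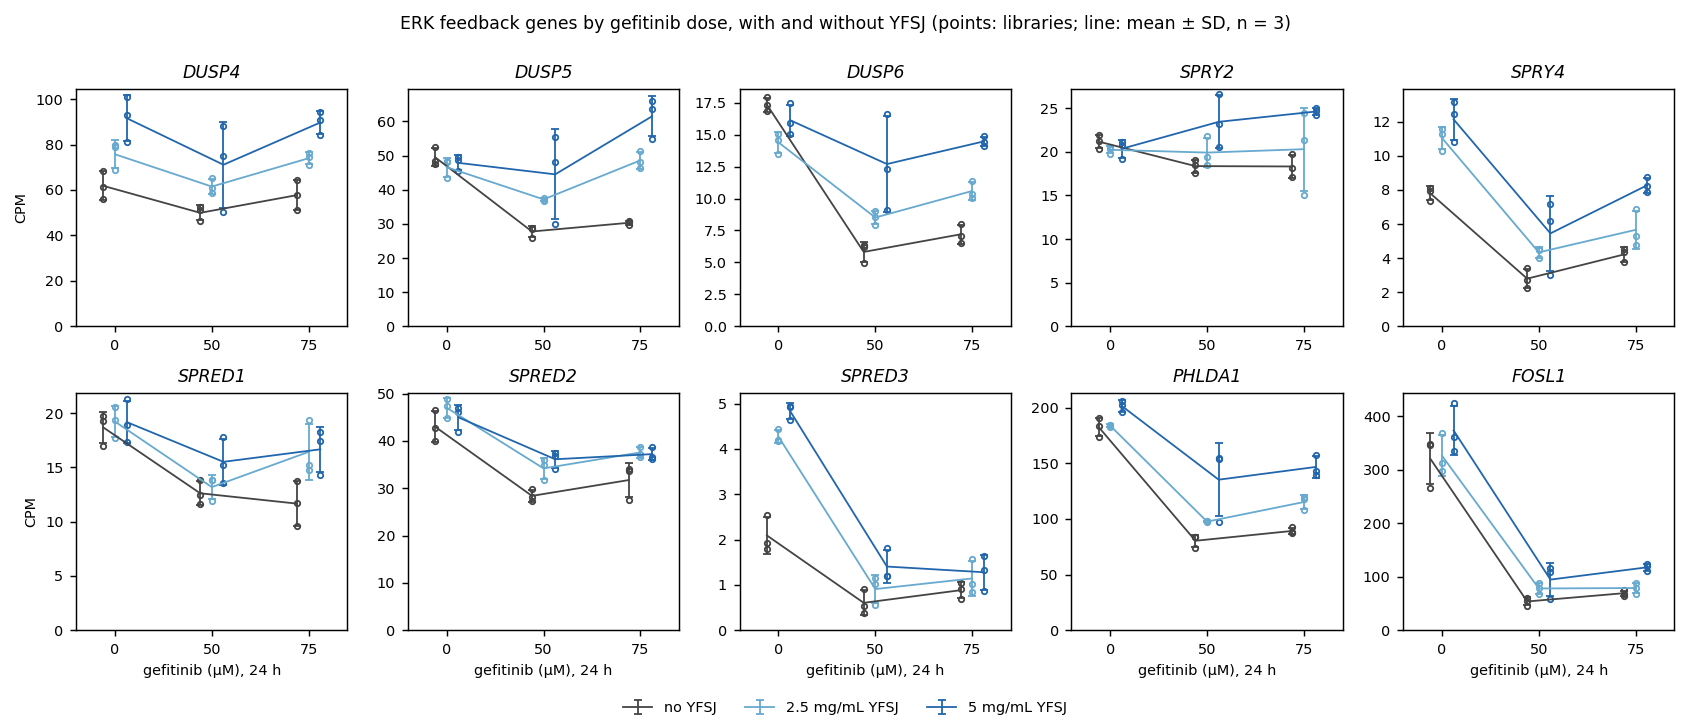
CPM of each of the 10 genes in H1975 cells after 24 h, by gefitinib dose (0, 50 and 75 µM on the horizontal axis) and by YFSJ dose (colours, 0, 2.5 and 5 mg/mL). Points are libraries, and lines join group means with SD bars (n = 3); the wide bars at gefitinib 50 µM with YFSJ 5 mg/mL come with library 3, which had 97.7 CPM of PHLDA1 beside 154 and 154 CPM in the other libraries of its group.

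When CKI was added to gefitinib, the feedback genes and FOSL1 were higher than with gefitinib alone. CKI 2 mg/mL raised all 10 members at 50 µM (26.6% of all genes rose) and all 10 at 75 µM (28.8% of all genes). CKI 1 mg/mL raised 9 members at 50 µM (15.5% of all genes) and 9 at 75 µM (17.3% of all genes); in both cases SPRY2 was the member not called. The members' median log2 fold change was 0.91, 0.72, 1.09 and 1.24 in these 4 comparisons in the order CKI 1 then 2 mg/mL, each at 50 then 75 µM. Under scaling by library size SPRY2 passed in both, at 0.33 (adjusted p = 0.0275) with 50 µM and 0.33 (adjusted p = 0.0288) with 75 µM. Pairs that share a gefitinib group share its 3 libraries. The RNR2 share was 1.02 to 1.20% with CKI 1 mg/mL and gefitinib and 1.13 to 1.56% with CKI 2 mg/mL and gefitinib, against 0.655 to 0.886% with gefitinib alone, and its part was not tested.

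SPRY4 had 25.2, 22.5 and 25.4 CPM with CKI 2 mg/mL and gefitinib 75 µM, against 3.75, 4.53 and 4.38 CPM with gefitinib 75 µM alone. It rose 5.76-fold (log2 fold change 2.53 ± 0.16 (SE), adjusted p = 4.52e-17). DUSP5 had 177, 162 and 159 CPM with both agents, against 29.7, 30.8 and 30.5 CPM with gefitinib 75 µM alone, a 5.47-fold rise (log2 fold change 2.45 ± 0.12 (SE), adjusted p = 3.63e-21). In the order of p-values over the 15789 genes of this comparison DUSP5 stood at place 13. DUSP6 had 30.1, 27.1 and 24.7 CPM with both agents, against 7.07, 8.02 and 6.51 CPM with gefitinib 75 µM alone (log2 fold change 1.92 ± 0.13 (SE), adjusted p = 1.04e-16). SPRED3 had 3.78, 3.67 and 4.16 CPM with both, against 0.907, 1.05 and 0.692 CPM with gefitinib 75 µM alone (log2 fold change 2.13 ± 0.25 (SE), adjusted p = 9.24e-10). None of these 4 genes had overlapping libraries between the 2 groups.

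FOSL1, which CKI alone did not raise, had 178, 188 and 192 CPM with CKI 2 mg/mL and gefitinib 75 µM, against 68.2, 64.7 and 74.3 CPM with gefitinib 75 µM alone. It rose 2.69-fold (log2 fold change 1.43 ± 0.16 (SE), adjusted p = 3.25e-10), yet all 3 libraries remained below the lowest untreated value of 266 CPM. The same held with CKI 1 mg/mL and gefitinib 50 µM, where FOSL1 had 115, 117 and 99.3 CPM, against 54.5, 60.5 and 45.6 CPM with gefitinib 50 µM alone (log2 fold change 1.05 ± 0.16 (SE), adjusted p = 1.53e-06). PHLDA1 had 148, 146 and 134 CPM with CKI 2 mg/mL and gefitinib 75 µM, against 87.9, 87.5 and 92.4 CPM with gefitinib alone (log2 fold change 0.68 ± 0.09 (SE), adjusted p = 3.47e-08). In this comparison DUSP4 rose by 1.06 ± 0.12, SPRED2 by 0.77 ± 0.08, SPRY2 by 0.59 ± 0.11 and SPRED1 by 0.51 ± 0.13 on the log2 scale.

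With CKI 2 mg/mL and gefitinib 50 µM the rises over gefitinib 50 µM alone ran from 0.38 to 2.29 on the log2 scale. DUSP5 had 127, 124 and 126 CPM with both agents, against 28.5, 26.0 and 28.9 CPM with gefitinib 50 µM alone, and SPRY4 had 14.3, 12.3 and 14.3 CPM with both, against 2.72, 3.41 and 2.28 CPM. With CKI 1 mg/mL, DUSP5 had 76.6, 73.3 and 84.2 CPM beside 50 µM and 97.8, 82.4 and 84.5 CPM beside 75 µM gefitinib, against 28.5, 26.0 and 28.9 and 29.7, 30.8 and 30.5 CPM with these doses alone (log2 fold changes 1.49 ± 0.12 and 1.54 ± 0.12). The libraries of both combined groups lay above those of their gefitinib group. The set of libraries with ALB counts enters 3 of these 4 comparisons. With a term for that set SPRED1 no longer passed in them (log2 fold change 0.28 for CKI 2 mg/mL at 75 µM, adjusted p = 0.206), and no other called member was lost; DUSP5 had 2.55 and FOSL1 1.44 in the same comparison.

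YFSJ added to gefitinib raised several members in comparisons where few other genes moved. YFSJ 5 mg/mL raised 8 of 10 at gefitinib 75 µM, where 1.79% of all genes rose and 1.67% fell, and 8 of 10 at 50 µM, where 0.532% did. YFSJ 2.5 mg/mL raised 4 of 10 at 75 µM (0.994% of all genes rose) and 0 of 10 at 50 µM (0.0633% of all genes rose and 0.0253% fell). The members' median log2 fold change was 0.68 for YFSJ 5 mg/mL at 75 µM and 0.72 at 50 µM, against 0.00421 and -0.00299 for all genes tested.

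DUSP5 had 66.1, 63.6 and 54.9 CPM with YFSJ 5 mg/mL and gefitinib 75 µM, against 29.7, 30.8 and 30.5 CPM with gefitinib 75 µM alone. It rose 2.03-fold (log2 fold change 1.02 ± 0.12 (SE), adjusted p = 1.87e-07) and stood at place 3 in the order of p-values over all genes. DUSP6 had 14.9, 14.1 and 14.4 CPM with both agents, against 7.07, 8.02 and 6.51 CPM with gefitinib 75 µM alone (log2 fold change 1.01 ± 0.13 (SE), adjusted p = 2.18e-06). PHLDA1 had 143, 158 and 139 CPM with both, against 87.9, 87.5 and 92.4 CPM (log2 fold change 0.72 ± 0.09 (SE), adjusted p = 1.84e-06). FOSL1 had 110.1, 119 and 123 CPM with both, against 68.2, 64.7 and 74.3 CPM (log2 fold change 0.77 ± 0.16 (SE), adjusted p = 0.00201). SPRY4 had 7.86, 8.76 and 8.22 CPM with both, against 3.75, 4.53 and 4.38 CPM (log2 fold change 0.97 ± 0.17 (SE), adjusted p = 0.000425). In each of these 5 genes the libraries with both agents lay above those with gefitinib alone.

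DUSP4, SPRY2 and SPRED1 also rose with YFSJ 5 mg/mL at 75 µM, by 0.63, 0.43 and 0.52 on the log2 scale. The calls of SPRY2 (0.38 to 0.43) and SPRED1 (0.39 to 0.52) ended without gefitinib library 2 or 3 or combined library 1 or 2. SPRED3, the member that rose most with YFSJ alone, had 0.868, 1.63 and 1.33 CPM with both agents, against 0.907, 1.05 and 0.692 CPM with gefitinib 75 µM alone, which overlapped (log2 fold change 0.51 ± 0.29, adjusted p = 0.41, 95% interval -0.09 to 1.11). SPRED2 was not called either (0.23 ± 0.08, adjusted p = 0.127).

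At gefitinib 50 µM with YFSJ 5 mg/mL the count depended on single libraries. DUSP6 had 16.6, 12.3 and 9.12 CPM with both agents, against 6.18, 4.95 and 6.35 CPM with gefitinib 50 µM alone, and had the smallest p of all genes in this comparison (log2 fold change 1.12 ± 0.14 (SE), adjusted p = 2.48e-06). PHLDA1 had 154, 154 and 97.7 CPM with both, against 83.5, 73.9 and 83.8 CPM, and was next (log2 fold change 0.75 ± 0.09 (SE), adjusted p = 2.55e-06). FOSL1 had 117, 108 and 58.7 CPM with both, against 54.5, 60.5 and 45.6 CPM, where library 3 of the combined group lay within the range of gefitinib alone (log2 fold change 0.82 ± 0.16 (SE), adjusted p = 0.00372). Without library 3 of the combined group 9 members were called, with log2 fold changes of 1.31 for DUSP6, 0.94 for PHLDA1 and 1.07 for FOSL1. Without library 1 or library 2 of that group 2 and 3 members were called, DUSP6 and PHLDA1 in both cases. Without library 1 or library 3 of the gefitinib 50 µM group 5 and 4 members were called. When only the 6 libraries compared were fitted, 0 members passed, with DUSP6 at 1.13 (adjusted p = 0.37).

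YFSJ 2.5 mg/mL at gefitinib 75 µM raised DUSP5, DUSP6, SPRED1 and PHLDA1. DUSP5 had 48.3, 46.2 and 51.4 CPM with both agents, against 29.7, 30.8 and 30.5 CPM with gefitinib 75 µM alone (log2 fold change 0.68 ± 0.12 (SE), adjusted p = 0.00138). The log2 fold changes of DUSP6, SPRED1 and PHLDA1 were 0.56 ± 0.14, 0.49 ± 0.13 and 0.37 ± 0.09. Without library 2 of the combined group, the one with the high RNR2 share, DUSP5 alone was called (0.72, adjusted p = 0.00356), and leaving out gefitinib 75 µM library 1, 2 or 3 left 2, 2 and 1 members; with only the 6 libraries compared 0 passed. At 50 µM all 10 members had log2 fold changes above 0, from 0.06 to 0.64, and 0 were called by edgeR or by DESeq2; 7 had an unadjusted p under 0.05.

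**Figure D3:**
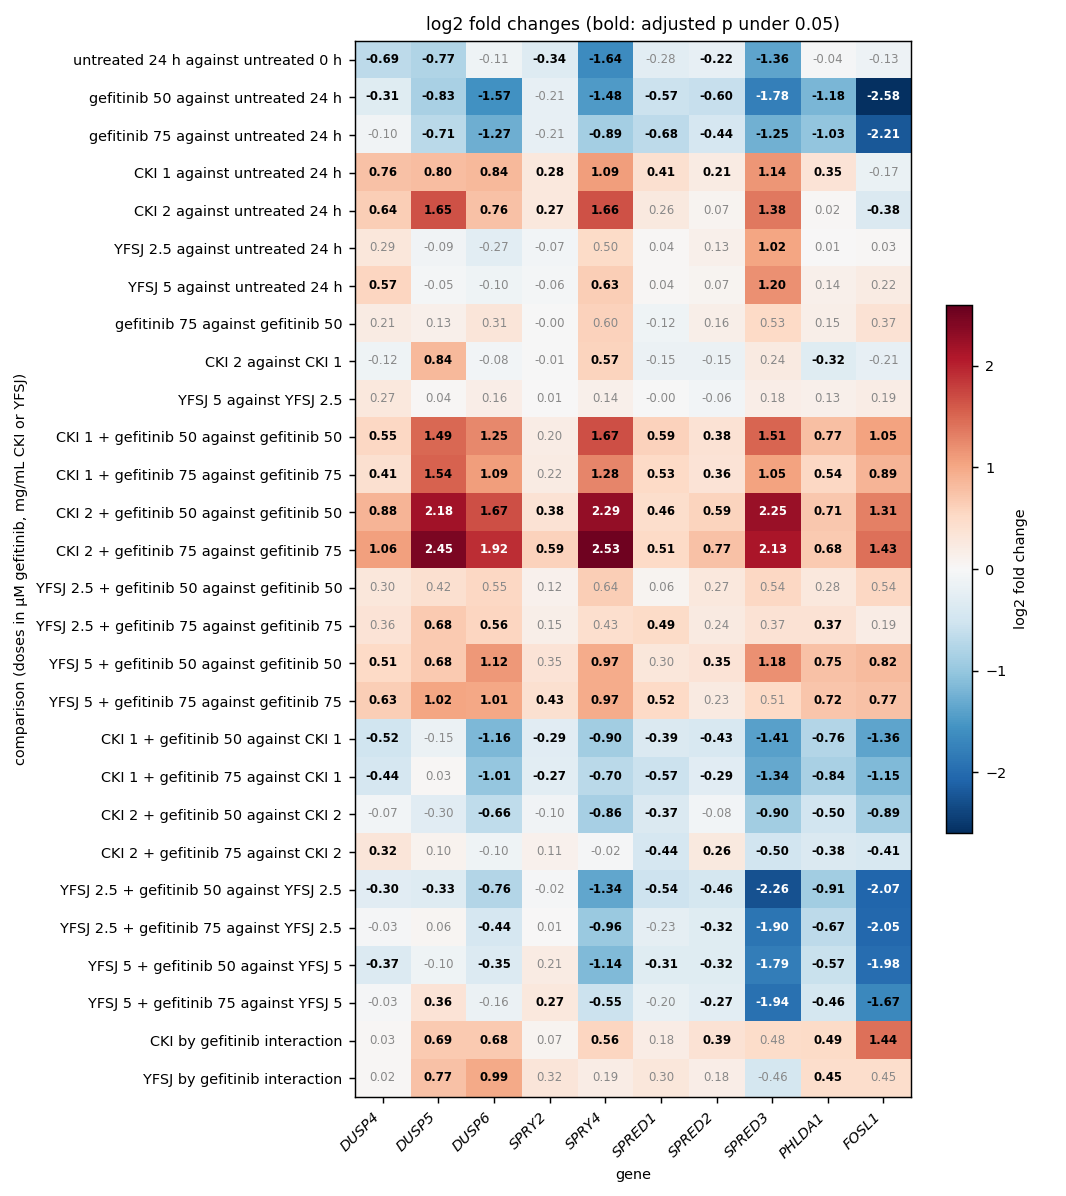
Log2 fold changes of the 10 genes (columns) in the 26 comparisons of groups and the 2 interactions (rows), the first-named group over the one it is set against. Red is higher and blue lower in the first-named group, and bold numbers passed adjusted p under 0.05 in the edgeR quasi-likelihood test; FOSL1 with gefitinib 50 µM has the lowest value, -2.58, and SPRY4 with CKI 2 mg/mL added to gefitinib 75 µM the highest, 2.53.

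Gefitinib added to a preparation was also set against that preparation alone, and FOSL1, PHLDA1 and SPRED3 fell in all 8 of these comparisons. With gefitinib 75 µM beside CKI 2 mg/mL the calls of FOSL1 and SPRED3 did not last: each ended when any 1 of the 6 libraries was left out, with no filter on low counts and with the ALB term. Beside CKI 1 mg/mL 9 members fell with 50 µM (19.8% of all genes fell) and 9 with 75 µM (24.2%). Beside CKI 2 mg/mL 6 fell and none rose with 50 µM (4.75% of all genes fell and 6.31% rose), and with 75 µM 4 fell (14.6%) while DUSP4 and SPRED2 rose (15.6%). Beside YFSJ 2.5 mg/mL 9 fell with 50 µM (26.8%) and 6 with 75 µM (25.8%). Beside YFSJ 5 mg/mL 8 fell and none rose with 50 µM (26.2% of all genes fell and 26.7% rose), and with 75 µM 5 fell (25.4%) while DUSP5 and SPRY2 rose (25.9%).

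FOSL1 fell by 0.41 to 2.07 on the log2 scale. The smallest fall was that with gefitinib 75 µM added to CKI 2 mg/mL, where FOSL1 had 178, 188 and 192 CPM with both, against 238, 269 and 233 CPM with CKI alone (adjusted p = 0.0382; -0.45 to -0.34 on the log2 scale with 1 library left out). PHLDA1 fell by 0.38 to 0.91 on the log2 scale, and SPRED3 by 0.50 to 2.26, of which the smallest, beside CKI 2 mg/mL with 75 µM, was -0.55 to -0.43 with 1 library left out. SPRED3 had 0.868, 1.63 and 1.33 CPM with YFSJ 5 mg/mL and gefitinib 75 µM, against 4.94, 4.92 and 4.64 CPM with YFSJ alone (log2 fold change -1.94 ± 0.23 (SE), adjusted p = 9.25e-10), and no library with both agents reached those with YFSJ alone. SPRY4 fell in 7 of the 8, the exception being gefitinib 75 µM added to CKI 2 mg/mL, where it had 25.2, 22.5 and 25.4 CPM with both, against 26.2, 22.5 and 25.7 CPM with CKI alone (log2 fold change -0.02 ± 0.14, 95% interval -0.31 to 0.26).

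DUSP5 followed another course. It fell with gefitinib 50 µM beside YFSJ 2.5 mg/mL (log2 fold change -0.33 ± 0.11 (SE), adjusted p = 0.0147), a call that ended without YFSJ library 3 (-0.30), and rose with 75 µM beside YFSJ 5 mg/mL, with 66.1, 63.6 and 54.9 CPM with both, against 49.5, 48.7 and 45.4 CPM with YFSJ alone (log2 fold change 0.36 ± 0.11 (SE), adjusted p = 0.00685). The rise kept its call without any 1 library. In the other 6 comparisons DUSP5 was not called, with log2 fold changes from -0.30 to 0.10. With gefitinib 50 µM beside CKI 2 mg/mL its libraries still lay wholly below those with CKI alone (means 125.8 and 155.2 CPM). Of all genes 14.9% did so in that comparison. DUSP6 fell in 6 of the 8 and had log2 fold changes of -0.10 ± 0.11 and -0.16 ± 0.12 with 75 µM beside CKI 2 mg/mL and YFSJ 5 mg/mL. The 6 calls with gefitinib 75 µM beside CKI 2 mg/mL became 2 to 4 when any 1 of the 6 libraries was left out. PHLDA1 (-0.38) was called in each of those fits, and the DUSP4 call ended in all except that without CKI library 2 (0.29 to 0.34). All 3 libraries of that combined group are in the set with ALB counts; with a term for the set SPRED1 (-0.66) and SPRED2 (0.45) alone passed, and FOSL1 had -0.39 (adjusted p = 0.229).

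Several smaller falls beside a preparation rested on single libraries or on the scaling. Beside CKI 1 mg/mL with 50 µM, scaling by library size ended the calls of SPRY2 (-0.14) and SPRED1 (-0.24); that of SPRY2 also ended without CKI library 3 or combined library 3 (-0.25 to -0.21), and that of SPRED1 without combined library 2 (-0.32). With 75 µM the same scaling ended those of SPRY2 (-0.16) and SPRED2 (-0.18), and that of SPRY2 also ended without CKI library 3 or combined library 2 or 3 (-0.26 to -0.22). Beside CKI 2 mg/mL with 50 µM the SPRED1 call ended without CKI library 1 or 3 or combined library 1 or 2 (-0.36 to -0.30), with library-size scaling (-0.37) and with no filter (-0.36). Beside YFSJ 2.5 mg/mL with 50 µM the DUSP4 call ended without YFSJ library 1 or 3 or combined library 1 or 3 (-0.29 to -0.26) and with library-size scaling (-0.20). The ALB term ended the calls of DUSP4 (-0.26) and SPRED1 (-0.32) with 50 µM beside YFSJ 2.5 mg/mL, and those of SPRY2 (-0.18) and SPRED2 (-0.17) with 75 µM beside CKI 1 mg/mL. Beside YFSJ 5 mg/mL with 50 µM, leaving out library 3 of the combined group took DUSP4, DUSP6 and SPRED1 below the threshold, and FOSL1 had -1.73 without it. In that comparison library-size scaling ended the calls of DUSP4 (-0.21), DUSP6 (-0.20), SPRED1 (-0.17) and SPRED2 (-0.17). Under that scaling 4 members were called lower and 1 higher. The rise of SPRY2 with 75 µM beside YFSJ 5 mg/mL, 0.27, ended without YFSJ library 2 or combined library 1 or 2 (0.23 to 0.27).

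Whether gefitinib and a preparation together differed from the sum of their separate log2 changes was tested as an interaction, averaged over the 4 dose pairs. A value above 0 means a level higher with both than that sum. For CKI 6 members were above 0 (20.0% of all genes were called in that direction) and 0 below (19.5% of all genes). FOSL1 had the largest value, 1.44 ± 0.16 on the log2 scale (adjusted p = 9.01e-10), followed by DUSP5 (0.69 ± 0.12, adjusted p = 8.49e-06), DUSP6 (0.68 ± 0.13, adjusted p = 3.81e-05), SPRY4 (0.56 ± 0.17), PHLDA1 (0.49 ± 0.10) and SPRED2 (0.39 ± 0.09). DUSP4 (0.03 ± 0.12, 95% interval -0.23 to 0.28) and SPRY2 (0.07 ± 0.11, -0.16 to 0.30) were near 0, while SPRED3 had 0.48 ± 0.26 (adjusted p = 0.148).

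For YFSJ 3 members were above 0, where 0.646% of all genes were, and 0 below (1.05% of all genes). DUSP6 had 0.99 ± 0.13 on the log2 scale (adjusted p = 5.87e-06), DUSP5 0.77 ± 0.12 (adjusted p = 0.00011) and PHLDA1 0.45 ± 0.10 (adjusted p = 0.00716). In the order of p-values over all 15789 genes DUSP6 stood at place 7 and DUSP5 at place 16. FOSL1 had 0.45 ± 0.16 (adjusted p = 0.128) and SPRED3 -0.46 ± 0.28 (adjusted p = 0.395), neither of which passed; FOSL1 passed without library 3 of YFSJ 5 mg/mL with gefitinib 50 µM (0.52 (adjusted p = 0.0202)). Both interactions use the same untreated and gefitinib libraries. The PHLDA1 call ended without untreated library 2 (0.42, adjusted p = 0.0531). Called members kept their calls with a term for the libraries with ALB counts, with FOSL1 at 1.45 for CKI and DUSP6 at 0.97 for YFSJ.

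Time in culture without any agent also moved part of the group. At 24 h against 0 h 6 of 10 members were lower (14.4% of all genes were) and none higher (10.8% of all genes), with a median log2 fold change of -0.31. SPRY4 had 8.14, 7.34 and 7.92 CPM at 24 h, against 26.6, 21.2 and 25.4 CPM at 0 h, a 3.13-fold fall (log2 fold change -1.64 ± 0.15 (SE), adjusted p = 3.42e-10) at place 3 in the order of p-values over all genes. SPRED3 had 2.55, 1.93 and 1.79 CPM at 24 h, against 6.64, 5.26 and 4.42 CPM at 0 h (log2 fold change -1.36 ± 0.21 (SE), adjusted p = 1.59e-05). DUSP5 had 52.4, 48.6 and 47.6 CPM at 24 h, against 90.5, 74.5 and 89.1 CPM at 0 h (log2 fold change -0.77 ± 0.11 (SE), adjusted p = 5.89e-06). DUSP4 had 61.2, 55.8 and 68.5 CPM at 24 h, against 119, 90.8 and 88.6 CPM at 0 h (log2 fold change -0.69 ± 0.12 (SE), adjusted p = 5.47e-05). The 24 h libraries of these 4 genes lay below all 0 h libraries.

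SPRY2 and SPRED2 fell by 0.34 and 0.22 on the log2 scale (adjusted p = 0.014 and 0.0408). DUSP6, PHLDA1 and FOSL1 did not pass: their log2 fold changes were -0.11 ± 0.12, -0.04 ± 0.09 and -0.13 ± 0.15, with 95% intervals of -0.36 to 0.13, -0.22 to 0.15 and -0.44 to 0.18. SPRED1 had -0.28 ± 0.12 (adjusted p = 0.091). The calls of SPRY2 and SPRED2 ended with scaling by library size (-0.27 and -0.15); that of SPRY2 ended without 0 h library 1 or 24 h library 2 (-0.34 to -0.32), and that of SPRED2 without any 1 library except 24 h library 3 (-0.24 to -0.17). With library 3 as the only 0 h library, since libraries 1 and 2 had the higher RNR2 share, SPRY4 (-1.72), SPRED3 (-1.08) and DUSP5 (-0.86) were called and DUSP4 was not (-0.53, adjusted p = 0.0697); the lone library is then assumed to vary like the other groups.

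**Figure D4:**
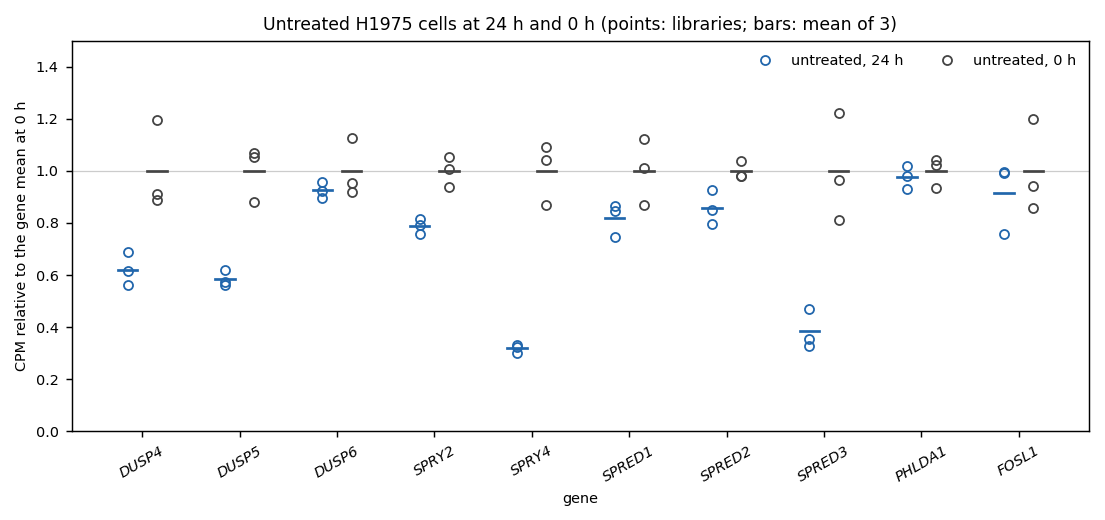
CPM of the 10 genes in untreated H1975 cells at 24 h (left of each pair) and 0 h (right), each divided by the gene's mean at 0 h. Points are the 3 libraries of each group and bars their mean; SPRY4 at 24 h is the lowest, with 7.80 CPM on average against 24.4 CPM at 0 h.

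Across all 16 groups each member had its lowest mean with gefitinib alone, SPRY2 and SPRED1 with 75 µM and the other 8 with 50 µM. The highest mean was with CKI 2 mg/mL and gefitinib 75 µM for DUSP4 (120.3 CPM), DUSP5 (166 CPM), SPRY2 (27.6 CPM) and SPRED2 (54.0 CPM). CKI 2 mg/mL alone held the highest mean of SPRY4 (24.8 CPM) and SPRED3 (5.48 CPM), and CKI 1 mg/mL alone that of DUSP6 (31.0 CPM), SPRED1 (24.9 CPM) and PHLDA1 (232 CPM). For FOSL1 it was YFSJ 5 mg/mL alone (373 CPM). The highest group mean was 9.09 times the lowest for SPRED3, 8.86 times for SPRY4 and 6.97 times for FOSL1, but 1.51 times for SPRY2. Most neighbours in these orders did not differ beyond their spread: of 15 neighbouring pairs of groups, 7 had libraries that did not overlap for PHLDA1, 6 for DUSP5, 4 for FOSL1 and 0 for SPRY2 and SPRED1.

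Over the 16 group means of log2 CPM the 45 pairs of members had Pearson correlations from 0.44 (DUSP5 with FOSL1) to 0.94 (PHLDA1 with FOSL1), with a median of 0.84. The median over all gene pairs was 0.000182. The points share 16 groups and their libraries, and the values are descriptions with no test. Because the members were chosen with earlier results of these data known, their median does not independently show that they move together. Outside the group the genes with the most similar course were ETV5 (0.95) and PHLDA2 (0.94) for DUSP6, of which ETV5 is an ETS transcription factor, and CCND1 (0.94) and OGFOD1 (0.94) for PHLDA1, of which CCND1 encodes cyclin D1. They were ELL2 (0.83) and HBEGF (0.82) for SPRY2, of which HBEGF is an EGFR ligand, and UCK2 (0.98) and TAP2 (0.98) for FOSL1. For the other members they were SPHK1 (0.89) and ANKRD40 (0.89) for DUSP4, USP38 (0.97) and SNAPC1 (0.97) for DUSP5, HCCS (0.95) and POLR1B (0.95) for SPRY4, TIMP4 (0.96) and PAQR5 (0.95) for SPRED1, SLCO4A1 (0.94) and AGO2 (0.93) for SPRED2 and DHX33 (0.97) and PDE12 (0.96) for SPRED3.

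Other genes of the pathway give the setting of these changes. With gefitinib 75 µM, 8 of 13 ETS and early transcription factors linked to ERK signalling fell and 0 rose. The list median was -0.29 on the log2 scale, beside 0.02 for all genes, of which 27.1% fell and 27.6% rose. ETV4 and ETV1, ETS factors, had log2 fold changes of -1.09 ± 0.13 and -1.29 ± 0.18, and the early growth response factor EGR3 -3.42 ± 0.59. Of 15 further ERK output genes (list median -0.56) 9 fell, among them ODC1, the first enzyme of polyamine synthesis (-1.23 ± 0.08), and 2 rose, among them UPP1, a uridine phosphorylase (1.55 ± 0.09). Of 7 measured genes from a list of 9 with other Sprouty and feedback genes (list median -0.21) 3 fell, among them ERRFI1, an inhibitor of EGFR (-0.81 ± 0.11), and SPRY1 (-1.60 ± 0.26), and 2 rose. Genes close in family to the members did not all move with them: of 10 other AP-1 subunits (list median 0.52) 8 rose, with ATF3 at 1.95 ± 0.16, MAFF at 1.01 ± 0.16 and JUND at 1.26 ± 0.24, and 1 fell. Of 10 other dual-specificity phosphatases (list median 0.29) 5 rose and 4 fell, with DUSP8 at 1.90 ± 0.20, DUSP16 at 0.82 ± 0.13 and DUSP3 at 0.75 ± 0.07. Of 19 genes of the core cascade from EGFR to ERK (list median -0.17) 4 rose and 7 fell.

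The same lists are given for the other main comparisons as the number higher and then the number lower, beside the shares of all genes. With CKI 2 mg/mL alone, where 24.1% of all genes rose and 27.1% fell, the counts were 4 and 3 of 13 ETS and early factors, 5 and 2 of 15 further ERK output genes, 5 and 0 of 7 other feedback genes, 7 and 1 of 10 other AP-1 subunits, 4 and 2 of 10 other dual-specificity phosphatases and 7 and 2 of 19 core cascade genes. Among the feedback genes LIF, a cytokine, had 1.51 ± 0.19 and SH2B3, a signalling adaptor, 0.80 ± 0.09; ETV5 had 1.17 ± 0.15 and ATF3 3.66 ± 0.16. In the CKI interaction, where 20.0% of all genes were above 0 and 19.5% below, they were 5 and 0 of 13 ETS and early factors, 8 and 4 of 15 further ERK output genes, 3 and 2 of 7 other feedback genes, 1 and 3 of 10 other AP-1 subunits, 4 and 4 of 10 other dual-specificity phosphatases and 2 and 4 of 19 core cascade genes, with EGR3 at 3.48 ± 0.64, MYC at 0.93 ± 0.15 and ODC1 at 0.68 ± 0.08.

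With YFSJ 5 mg/mL alone, where 4.28% of all genes rose and 2.20% fell, the counts were 1 and 2 of 13 ETS and early factors, 3 and 0 of 15 further ERK output genes, 2 and 0 of 7 other feedback genes, 1 and 3 of 10 other AP-1 subunits, 2 and 3 of 10 other dual-specificity phosphatases and 3 and 0 of 19 core cascade genes. DUSP1, a nuclear phosphatase induced early by stimuli, had -1.56 ± 0.13, FOS -2.36 ± 0.28 and FOSB -2.55 ± 0.33. In the YFSJ interaction, where 0.646% of all genes were above 0 and 1.05% below, they were 1 and 0 of 13 ETS and early factors, 0 and 1 of 15 further ERK output genes, 0 and 1 of 7 other feedback genes, 3 and 0 of 10 other AP-1 subunits, 1 and 0 of 10 other dual-specificity phosphatases and 0 and 1 of 19 core cascade genes, with DUSP1 at 1.36 ± 0.14 and MYC at 0.93 ± 0.15. At 24 h against 0 h without agents, where 10.8% of all genes rose and 14.4% fell, they were 1 and 6 of 13 ETS and early factors, 0 and 4 of 15 further ERK output genes, 1 and 3 of 7 other feedback genes, 2 and 3 of 10 other AP-1 subunits, 2 and 2 of 10 other dual-specificity phosphatases and 0 and 4 of 19 core cascade genes, with FOS at 2.55 ± 0.29. All values are log2 fold changes with SE from the same fit, and all named genes passed adjusted p under 0.05 over all genes tested.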

How the data were processed

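Per the labels' protocols, libraries of total RNA were unstranded and read from both ends. The deposited table holds whole-number read counts per gene symbol for 48 libraries and is not normalised. The submitters' processing notes name Trim Galore 0.4.2, STAR 2.5.3a, edgeR and the hg19 build. The counting tool, annotation and strand setting are not given in the sources used here. Columns were matched to libraries by the sample names in the labels.

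The fit used edgeR 4.0.16 (R 4.3.3), TMM factors, filterByExpr (10 counts in enough libraries, 15 in total) and robust quasi-likelihood fits of all 16 groups with 1 mean each, leaving 32 residual degrees of freedom. The filter kept 15789 genes and 99.97% of counts. Tests were two-sided, p-values were adjusted by Benjamini and Hochberg over all genes tested, and a gene was called at adjusted p under 0.05. The SE was the log2 fold change divided by the root of F. CPM used TMM-scaled library sizes. The tests were checked on simulated counts. Similar genes were ranked by Pearson correlation over group means of log2 CPM with a prior count of 2, and the nearest 2 were named; of the pathway lists, up to 3 called genes with the smallest p were named for each main comparison. No pair of replicate libraries agreed within sampling noise. The members and gene lists were chosen with earlier results of these data known. Alternatives were other scalings, no filter, DESeq2 1.42.0, a replicate block, a term for the libraries with ALB counts, smaller fits and each library left out.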

Additional observations from a re-analysis of the deposited data

Results flagged for a closer look

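The difference between the gefitinib effect with a preparation and without it passed the interaction test in edgeR's quasi-likelihood fit for 9 values of the members, all above 0 on the log2 scale. With CKI these were FOSL1 (1.44), DUSP5 (0.69), DUSP6 (0.68), SPRY4 (0.56), PHLDA1 (0.49) and SPRED2 (0.39). With YFSJ they were DUSP6 (0.99), DUSP5 (0.77) and PHLDA1 (0.45). All 9 kept their direction in each alternative fit. FOSL1, DUSP5, DUSP6, SPRY4, PHLDA1 and SPRED2 kept the CKI call when any 1 library was left out, and DUSP6 and DUSP5 the YFSJ call.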

How the results depend on the processing

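Of 173 called values of the members over 28 comparisons, none changed sign in any alternative. Relative log expression factors, DESeq2 and the replicate block ended 0 of these calls, scaling by library size 21, no filter on low counts 11, the term for the ALB libraries 12 and fits of the compared libraries alone 18. Of 197 alternative counts of called members 186 were within 1.5 times the first count. With library-size scaling, the count for YFSJ 2.5 mg/mL added to gefitinib 75 µM moved to 2. That for gefitinib 50 µM added to YFSJ 5 mg/mL moved to 5, of which 4 were lower and 1 higher. With the ALB term, YFSJ 2.5 mg/mL alone moved to 0 and gefitinib 75 µM added to CKI 2 mg/mL to 2. With DESeq2, YFSJ 2.5 mg/mL alone moved to 2. With only library 3 at 0 h, the count for 24 h against 0 h also moved. With only the compared libraries the counts became 3 for 24 h against 0 h and 2 for YFSJ 2.5 mg/mL alone. They became 0 for YFSJ 2.5 mg/mL added to gefitinib 75 µM and 0 for YFSJ 5 mg/mL added to 50 µM. For gefitinib 50 µM added to YFSJ 5 mg/mL the count became 5. The cause was not tested. Leaving out 1 library gave 2 to 9 calls for YFSJ 5 mg/mL added to gefitinib 50 µM, 1 to 4 for YFSJ 2.5 mg/mL added to 75 µM and 2 to 4 for gefitinib 75 µM added to CKI 2 mg/mL. Library-size scaling raised the median log2 fold change of all genes by over 0.1 in 10 comparisons, by 0.198 at most (CKI 2 mg/mL alone), and moved 48 of 160 group levels by over 1 SD. Values that were not called changed sign in 27 of 753 alternative fits and in 46 of 873 with a library left out. Replicate numbers were not used to pair libraries: same-numbered libraries had a mean correlation of -0.0086 in their deviations from group means, and in 1 of 26 comparisons every pair exceeded 0.1. With the replicate block the same 173 values were called; 9 of 48 libraries correlated best with their own number. Depth limits SPRED3 most, at 6 counts in its lowest library.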
